A study of Mus musculus with 2 samples.

Results

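This account follows 10 mouse genes for protein folding in the endoplasmic reticulum: the disulfide isomerase genes P4hb, Pdia3, Pdia4, Pdia5 and Pdia6, the lectin chaperone genes Calr and Canx, and the folding factor genes Creld2, Manf and Hyou1. They were taken by symbol from the 18724 rows of the deposited table, and all 10 were found. The RNA came from prostate luminal epithelial cells of mice aged 18 weeks, sorted by flow cytometry into GFP-positive (L-GFP+) and GFP-negative (L-GFP-) cells. The series title names the label as histone 2B-GFP, which cells that divide little retain. The L-GFP+ cells are the label-retaining group and the L-GFP- cells the non-retaining group, with 1 library each. Both are luminal sorts, and neither the mouse strain, the driver and schedule of the label, the number of mice nor the surface antigens of the sort is given in the sources used here.

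Secreted and membrane proteins fold in the endoplasmic reticulum. There the protein disulfide isomerases make, break and rearrange bonds between cysteines, and calnexin and calreticulin hold glycoproteins that still carry a terminal glucose until they fold. The chaperone BiP, encoded by Hspa5, binds exposed hydrophobic stretches, and the exchange factor encoded by Hyou1 resets it. When unfolded protein builds up, the sensors ATF6, IRE1 and PERK raise the supply of such factors, a programme called the unfolded protein response. Prostate luminal cells are professional secretory cells that export large amounts of protein into the seminal fluid.

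The table held gene read counts divided by a size factor per library, 1.002 for L-GFP+ and 1.10 for L-GFP-, called normalised counts here. The recovered reads summed to 50689229 and 48334265. A gene counted as measured if its normalised counts averaged 10 or more over both libraries, which left 17183, all 10 folding genes among them. Luminal marker genes were abundant in both libraries, with Krt8 at 147910 normalised counts in L-GFP+ cells and 81228 in L-GFP- cells. Basal marker genes were lower in the label-retaining library in 10 of 10 cases, and their summed normalised counts were 50908 against 402554. Summed leukocyte markers stood at 1067 against 15329, smooth muscle markers at 2156 against 24677, and seminal vesicle secretion genes at 84377 against 782. By calls, leukocyte markers were 1 of 12 higher and 8 lower, smooth muscle markers 0 of 8 higher and 8 lower, and endothelial markers 0 of 8 higher and 6 lower. Luminal markers were 4 of 12 higher and prostate secretory genes 6 of 12, with 0 lower in both. The shares called among all measured genes, by the rule defined in the next paragraph, were 14.5% higher and 19.4% lower. The part of these differences in the ratios of the folding genes was not tested, and in sorted bulk RNA fewer cells of a type and less RNA per cell cannot be told apart.

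All 10 folding genes had higher normalised counts in the label-retaining library. Of them, 8 were called higher, that is, at least 2-fold apart with a 95% counting interval of the ratio that excluded equality, and 0 were called lower. Across all measured genes 14.5% were called higher and 19.4% lower by the same rule. The median log2 ratio of the 10 genes was 1.503, beside -0.01 for all measured genes. Calr and Canx, the lectin chaperones, were under 2-fold. With 1 library per group no test between the groups was possible, and the intervals cover counting error only. In the luminal marker list log2 ratios ran from -0.79 (Cdh1) to 2.50 (Krt19), so a scaling on it depends on the genes chosen. When both libraries were scaled so that the luminal keratins Krt8 and Krt18 were equal, every log2 ratio moved by -0.76. Then 2 of the 10 genes stayed called higher, Pdia5 at 1.67 and Creld2 at 1.05, while Pdia6 at 0.99 fell just short of 2-fold. The median was 0.74, and Canx turned to -0.17. That scaling moved the median of all measured genes to -0.78 and their calls from 2483 higher and 3330 lower to 923 (5.35%) and 6984 (40.5%). Scaling by library totals moved the median of all genes to -0.21 and the calls to 1917 (11.1%) and 4001 (23.3%). At a threshold of 1.5-fold, 10 of the 10 genes were called higher, beside 24.2% higher and 26.8% lower among all measured genes. At 3-fold 4 were called higher, beside 7.15% higher and 12.8% lower among all.

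**Figure D1:**
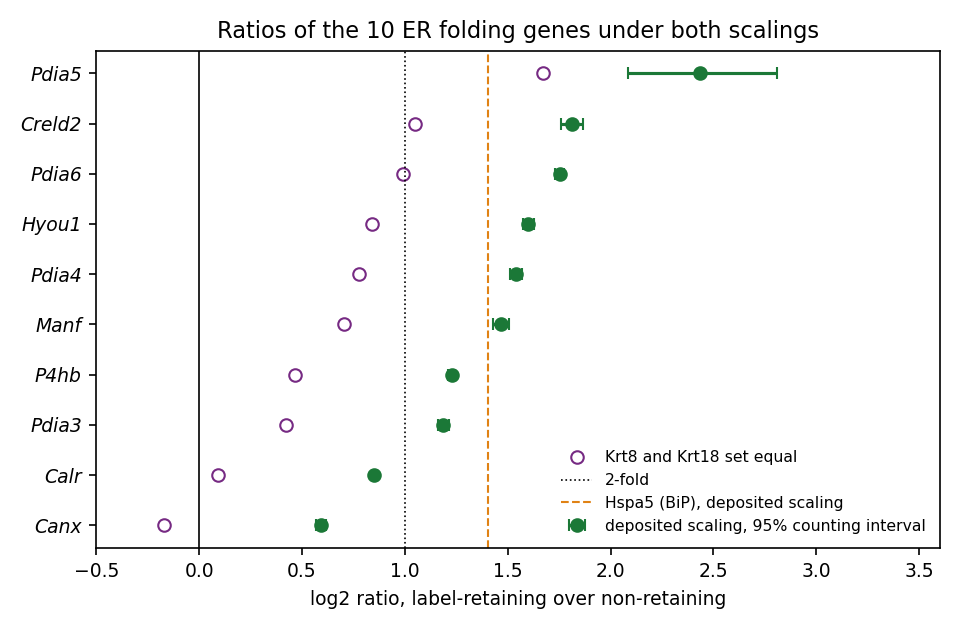
Log2 ratio of the label-retaining over the non-retaining library (x axis) for the 10 folding genes, with filled points and 95% counting intervals for the deposited scaling and open points for the scaling on Krt8 and Krt18. Under the deposited scaling the genes ran from 0.59 for Canx to 2.43 for Pdia5, with Hspa5 at 1.40 (dashed line).

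Many genes of this family carry the endoplasmic reticulum stress element in their promoters, where the factor NF-Y binds the CCAAT part and the stress sensor ATF6 the CCACG part. Promoter windows of 300 bases, from 250 before to 50 after the RefSeq transcription start (build GRCm38.p6), were matched by symbol for 8 of the 10 genes, all but Manf and Hyou1. The element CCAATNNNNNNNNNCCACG was searched on both strands. It was found in 4 of the 8 windows, those of Calr, Canx, Pdia6 and Creld2, and in 0.119% of all 32851 windows. Because the element was already known from this gene family, the matches are a description and not a test. The share of all windows was not matched for GC content, whose median was 67.3% in the 8 windows and 52.7% in all windows. The elements are shown 5′ to 3′ in the orientation of the motif, with its fixed letters in capitals, because they are the sequence that these 4 genes share.
Calr: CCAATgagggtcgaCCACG
Canx: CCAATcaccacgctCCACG
Pdia6: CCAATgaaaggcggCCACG
Creld2: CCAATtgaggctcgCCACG

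With at most 1 mismatch in the fixed letters, the windows of Pdia3 and Pdia4 also matched, as did 1.504% of all windows. This looser search was chosen after the exact matches were seen. The window of P4hb held both parts of the element on 1 strand with 6 bases between them in place of 9, from -14 to 1 relative to the start, a spacing found in 0.0578% of all windows. That spacing was picked after the window had been read. With 2 bases between the parts the window of Canx also matched, inside its exact element, as did 0.0304% of all windows. In the windows below capitals mark the positions compared.
Pdia3: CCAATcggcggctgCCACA
Pdia4: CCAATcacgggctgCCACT
P4hb: CCAATcaggagCCACG

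The related elements ATTGGNCCACG (ERSE-II) and TGACGTGG (UPRE), which both share the CCACG letters on 1 strand, were found in 0 of the 8 windows, beside 0.0365% and 0.676% of all windows. The window of Pdia5 held none of the motifs. No match says only that these letters are not in this window. The full windows of the 4 genes with an exact element follow, on the strand of the gene, with the element in capitals. Calr lies at chr8:84846882-84847181 (minus strand), Canx at chr11:50325624-50325923 (minus strand), Pdia6 at chr12:17266339-17266638 (plus strand) and Creld2 at chr15:88819396-88819695 (plus strand).
Calr: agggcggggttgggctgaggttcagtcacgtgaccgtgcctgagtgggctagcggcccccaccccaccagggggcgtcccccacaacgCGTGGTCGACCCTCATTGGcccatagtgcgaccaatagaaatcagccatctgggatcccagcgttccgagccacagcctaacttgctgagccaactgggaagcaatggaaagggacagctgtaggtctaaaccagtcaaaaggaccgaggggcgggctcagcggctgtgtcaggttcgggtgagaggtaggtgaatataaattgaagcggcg
Canx: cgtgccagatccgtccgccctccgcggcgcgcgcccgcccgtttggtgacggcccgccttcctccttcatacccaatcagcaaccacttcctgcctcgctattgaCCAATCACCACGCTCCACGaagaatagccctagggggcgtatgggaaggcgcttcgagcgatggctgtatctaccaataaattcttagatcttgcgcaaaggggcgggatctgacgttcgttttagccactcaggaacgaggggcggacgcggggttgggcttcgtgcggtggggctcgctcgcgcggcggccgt
Pdia6: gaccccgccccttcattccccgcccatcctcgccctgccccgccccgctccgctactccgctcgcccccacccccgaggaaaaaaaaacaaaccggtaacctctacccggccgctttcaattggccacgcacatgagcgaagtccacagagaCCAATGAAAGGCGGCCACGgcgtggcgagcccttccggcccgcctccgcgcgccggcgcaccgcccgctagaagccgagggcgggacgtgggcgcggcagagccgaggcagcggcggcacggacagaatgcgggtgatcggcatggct
Creld2: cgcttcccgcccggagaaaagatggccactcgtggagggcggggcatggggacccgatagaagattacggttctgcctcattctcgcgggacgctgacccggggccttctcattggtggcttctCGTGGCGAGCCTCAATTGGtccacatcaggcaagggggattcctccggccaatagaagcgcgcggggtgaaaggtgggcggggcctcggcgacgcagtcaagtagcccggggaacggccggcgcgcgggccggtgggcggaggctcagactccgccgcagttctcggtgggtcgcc

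The element lay from -162 to -144 relative to the start in Calr, from -145 to -127 in Canx, from -126 to -108 in Creld2 and from -98 to -80 in Pdia6. In Calr and Creld2 it stood opposite to the strand of the gene, and in Canx and Pdia6 on the same strand. The presence of an exact element did not order the genes by ratio. Creld2 and Pdia6 had the largest log2 ratios of the 10 genes after Pdia5, and Calr and Canx the smallest. The element of Creld2 is shared with Alg12, a mannosyltransferase gene of glycan assembly that starts 328 bases away on the opposite strand. Alg12 had 929 normalised counts in L-GFP+ cells and 463 in L-GFP- cells, with a log2 ratio of 1.004 (0.85 to 1.163), against 1.81 for Creld2.

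**Figure D2:**
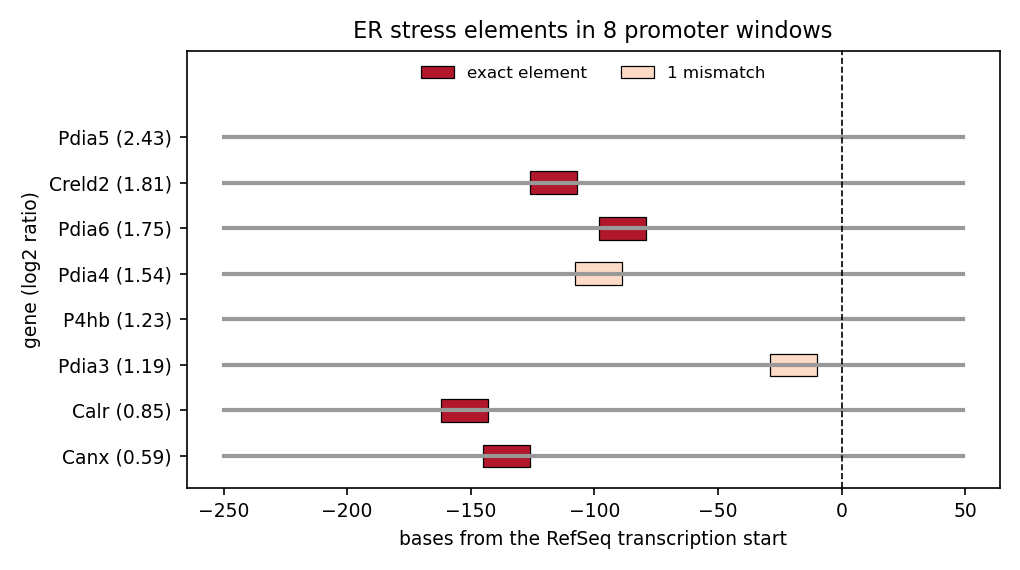
Positions of exact elements (red) and of windows with 1 mismatch (pale) in 8 promoter windows, in bases from the RefSeq start (x axis), with genes ordered by log2 ratio (in brackets). Exact elements occur both in Creld2 and Pdia6, near the top, and in Calr and Canx, at the bottom.

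Among the disulfide isomerases, P4hb (ENSMUSG00000025130.10, chr11:120560298-120573253, minus strand, mm10) encodes the archetypal isomerase PDI, which is also the beta subunit of collagen prolyl 4-hydroxylase. It had 82358 normalised counts in L-GFP+ cells and 35188 in L-GFP- cells. The log2 ratio was 1.23 (counting interval 1.21 to 1.24), or 2.34-fold. Pdia3 (ENSMUSG00000027248.12, chr2:121413775-121438687, plus strand) encodes ERp57, the isomerase that works with calnexin and calreticulin on glycoproteins. Its normalised counts were 32046 and 14080, a log2 ratio of 1.19 (1.159 to 1.21). The ratios of P4hb and Pdia3 lay 0.04 apart on the log2 scale (0.01 to 0.07), so these isomerases differed from each other by little beyond counting error.

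Pdia4 (ENSMUSG00000025823.9, chr6:47796141-47813430, minus strand) encodes ERp72, an isomerase with more thioredoxin domains than PDI. It had 33353 normalised counts in L-GFP+ cells and 11463 in L-GFP- cells, a log2 ratio of 1.54 (1.51 to 1.57). Pdia6 (ENSMUSG00000020571.11, chr12:17266545-17284770, plus strand) encodes P5, an isomerase that associates with BiP. Its normalised counts were 65576 and 19472, with a log2 ratio of 1.75 (1.73 to 1.77), or 3.37-fold. Both genes were thus further apart between the libraries than P4hb and Pdia3, by more than counting error.

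Pdia5 (ENSMUSG00000022844.7, chr16:35397312-35490873, minus strand) encodes PDIR, an isomerase reported to act on ATF6. It was the scarcest of the 10 genes, with 385 normalised counts in L-GFP+ cells and 71 in L-GFP- cells, from 386 and 78 reads. Its log2 ratio of 2.43 (2.09 to 2.81), or 5.40-fold, was the largest of the 10 and had the widest interval. It exceeded the ratio of Creld2, next in order, by 0.63 on the log2 scale (0.27 to 0.98). With a pseudocount of 5 in place of 0.5 normalised counts it was 2.36.

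**Figure D3:**
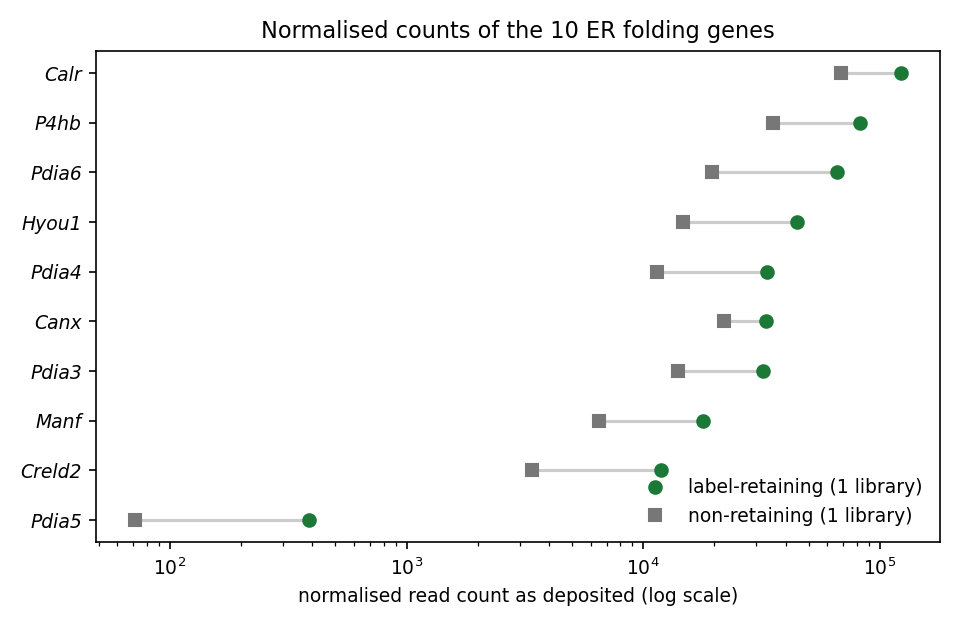
Normalised counts of the 10 folding genes (x axis, log scale) in the label-retaining (green circles) and the non-retaining library (grey squares). Each gene lies farther right in the label-retaining library, from Pdia5 at 385 against 71 to Calr at 123271 against 68322.

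The lectin chaperones were the least different. Calr (ENSMUSG00000003814.8, chr8:84841850-84846934, minus strand) encodes calreticulin, a soluble, calcium-storing chaperone. It had the most reads of the 10 genes, with 123271 normalised counts in L-GFP+ cells and 68322 in L-GFP- cells. Its log2 ratio was 0.85 (0.84 to 0.86), or 1.804-fold. Canx (ENSMUSG00000020368.14, chr11:50293961-50325673, minus strand) encodes calnexin, the membrane-bound counterpart. Its normalised counts were 33034 and 21941, with a log2 ratio of 0.59 (0.57 to 0.61), or 1.51-fold. The ratio of Canx was lower than that of Calr by 0.26 on the log2 scale (0.23 to 0.29). Calr and Krt8 had nearly the same log2 ratio, 0.85 and 0.86.

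Of the folding factor genes, Creld2 and Hyou1 had ratios above the median of the 10 and Manf one just below it. Creld2 (ENSMUSG00000023272.3, chr15:88819646-88826683, plus strand) encodes a secreted and reticulum-resident factor induced by stress. It had 11895 normalised counts in L-GFP+ cells and 3383 in L-GFP- cells, a log2 ratio of 1.81 (1.76 to 1.87), or 3.52-fold. Hyou1 (ENSMUSG00000032115.12, chr9:44379490-44392369, plus strand), which encodes the large HSP70-related protein GRP170, stood at 44484 and 14674. Its log2 ratio was 1.60 (1.57 to 1.63), or 3.03-fold. Manf (ENSMUSG00000032575.15, chr9:106838312-106891979, minus strand) encodes a small BiP-binding protein that cells can secrete. Its normalised counts were 17902 and 6482, with a log2 ratio of 1.47 (1.43 to 1.51). The annotated exons of Manf overlap those of Dcaf1 and of an antisense gene on the opposite strand by 4.14% and 4.71% of their length. On the same strand they overlap those of Rbm15b by 0.397%. The use of strand in the counting is not given in the sources used here. For Pdia3, Pdia4 and Pdia6 the overlap with any other gene's exons was at most 1.34%, and for the other genes it was 0 bases or there was no overlapping gene.

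In order of log2 ratio the genes ran Pdia5, Creld2, Pdia6, Hyou1, Pdia4, Manf, P4hb, Pdia3, Calr and Canx. All 9 differences between neighbours in this order, positive because the genes were sorted on the same reads, had counting intervals above 0. The smallest were 0.04 between P4hb and Pdia3 and 0.06 between Hyou1 and Pdia4 and between Creld2 and Pdia6. Such intervals hold no variation between animals or sorts, so an order at these steps describes the 2 libraries alone. Among all measured genes the ratios lay between percentile 74.4 (Canx) and percentile 97.5 (Pdia5).

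**Figure D4:**
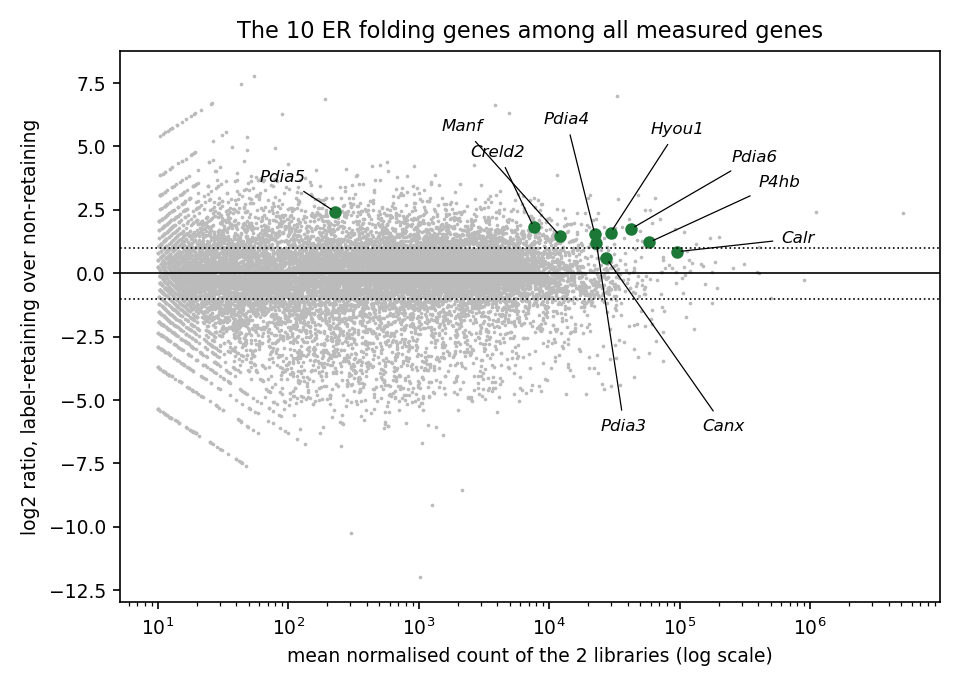
Log2 ratio (y axis) against the mean normalised count of the 2 libraries (x axis, log scale) for 17183 measured genes (grey) and the 10 folding genes (green), with dotted lines at 2-fold. All but Pdia5 lie at the abundant end, and Calr and Canx lie between equality and the 2-fold line.

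Levels between genes were compared per length, as TPM (reads per length, scaled to a common total per library), from reads over merged exon length. In the label-retaining library Calr led with 2475 TPM, followed by P4hb with 1664, Pdia6 with 1012, Pdia4 with 804 and Pdia3 with 590 TPM. Creld2 (503 TPM), Canx (407), Hyou1 (356) and Manf (294) followed, and Pdia5 was far below at 8.04 TPM. In the non-retaining library Calr (1417 TPM) and P4hb (735) led again. Pdia6 (311), Pdia4 (285), Canx (279) and Pdia3 (268) lay close together there, followed by Creld2 (148), Hyou1 (121), Manf (110) and Pdia5 (1.53 TPM). Canx thus lay above Pdia3 in the non-retaining library and below Pdia3 and Creld2 in the label-retaining one. The order depended on the gene model, most of all for Manf. With the median length of coding transcripts in place of merged exons, Manf was at 1049 TPM in L-GFP+ cells, above Pdia6 at 963, and at 387 TPM in L-GFP- cells. By merged exons Calr ranked 39 among the measured genes in the label-retaining library and 74 in the non-retaining one, P4hb 49 and 141, and Creld2 167 and 687.

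Together the 10 genes took 0.878% of the L-GFP+ reads and 0.444% of the L-GFP- reads. Outside the 20 most abundant genes, which took 30.6% and 15.8% of reads, the shares were 1.26% and 0.527%. The prostate secretory list, led by 9530053A07Rik and Tgm4, summed to 22.2% of the L-GFP+ reads and 5.77% of the L-GFP- reads, a log2 ratio of 2.15 for the sum against 1.19 for the sum of the folding genes. There were 3.95 folding gene reads per 100 secretory reads in the label-retaining library and 7.69 in the non-retaining library. This quotient does not depend on the scaling between the libraries, but it rests on 9530053A07Rik and Tgm4. Without both it turned around, to 53.8 and 37.5 folding gene reads per 100 reads of the other 10 secretory genes. Per 100 reads of the luminal marker list there were 71.6 and 52.3 folding gene reads. The difference between these quotients rests on Cdh1, named after its values were seen. It had 77310 reads in L-GFP+ cells and 146957 in L-GFP- cells, the most of that list in the non-retaining library.

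Ratios within a library are also free of the scaling. Hspa5, the gene of BiP, had 250342 normalised counts in L-GFP+ cells and 94690 in L-GFP- cells, a log2 ratio of 1.40 (1.39 to 1.41). Relative to Hspa5, Pdia5 (1.04 on the log2 scale), Creld2 (0.41), Pdia6 (0.35), Hyou1 (0.20), Pdia4 (0.14) and Manf (0.06) were higher in the label-retaining library. P4hb (-0.18), Pdia3 (-0.22), Calr (-0.55) and Canx (-0.81) were lower relative to Hspa5. All 10 counting intervals of these differences excluded 0, with that of Manf, 0.02 to 0.10, nearest to it. In TPM, Calr stood at 1.06 of the level of Hspa5 in L-GFP- cells and at 0.723 in L-GFP+ cells. P4hb and its glycoprotein counterpart Pdia3 kept a TPM quotient of 2.82 in L-GFP+ cells and 2.74 in L-GFP- cells.

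The other genes of the folding pathway were taken as 8 lists. Of 80 measured genes in them, 26 were called higher and 7 lower, with a median log2 ratio of 0.66. By the same rule 14.5% of all measured genes were called higher and 19.4% lower. Of 14 measured genes of the HSP70 and HSP90 chaperones and their partners, 8 were higher and 0 lower (median 1.12). Sdf2l1, a partner of the BiP cochaperones, was at 1.81 (1.74 to 1.88) and Sil1, a nucleotide exchange factor of BiP, at 1.52 (1.45 to 1.59). Of 9 measured regulators of the unfolded protein response, 5 were higher and 0 lower (median 1.14). Eif2ak3, the gene of PERK, was at 2.09 (2.03 to 2.14), Atf6 at 1.62 (1.58 to 1.66) and Ern1, the gene of IRE1, at 1.27 (1.24 to 1.31). The higher ones that remain, named after their values were seen, were Xbp1 (1.25) and Atf6b (1.14). Atf4, the regulator with the highest TPM, was at 0.23 and not called.

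Of the 13 other measured disulfide isomerase genes, 5 were higher and 0 lower (median 0.64). The shares among all measured genes were 14.5% higher and 19.4% lower. Dnajc10, the reductase ERdj5, was at 1.90 (1.88 to 1.92), Agr2, an isomerase of mucous and secretory epithelia, at 1.85 (1.81 to 1.90) and Erp44, a retention factor, at 1.39 (1.34 to 1.44). Erp29 (1.32) and Txndc5 (1.19), named after their values were seen, made up the 5. The membrane-anchored Tmx genes were not called, with log2 ratios from -0.69 for Tmx3 to 0.39 for Tmx2. A further list held genes of disulfide oxidation and related redox factors. Of its 10 measured genes, 0 were higher and 1 was lower (median 0.02). The lower one was Prdx4, a peroxiredoxin of the reticulum, with 388 normalised counts in L-GFP+ cells and 875 in L-GFP- cells (-1.17, -1.35 to -1.001). The oxidase gene Ero1l, named after its values were seen, was at -0.71 (-0.79 to -0.62), and Selenof, the gene with the highest TPM of that list, at 0.98 (0.94 to 1.02).

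Around the lectin chaperones, 3 of 12 measured genes were higher and 1 lower (median 0.84). For comparison, 14.5% of all measured genes were higher and 19.4% lower. The mannosidase-like genes Edem2 (1.66, 1.61 to 1.72) and Edem1 (1.10, 1.06 to 1.14) direct glycoproteins to degradation, and Mlec (1.10, 1.06 to 1.14) encodes the lectin malectin. The lower one was the calreticulin relative Calr4, with 5 reads against 22 (-1.90, -3.76 to -0.57), named after its values were seen. Of 8 prolyl isomerase genes 3 were higher and 2 lower (median 0.14). Fkbp11 was at 1.7999 (1.69 to 1.91), whereas Ppic was at -2.43 (-2.67 to -2.20) and Fkbp10, which acts on collagen, at -1.63 (-1.82 to -1.44). Ppib, the gene with the highest TPM of that list, was at 1.05 (1.02 to 1.08) and Fkbp2, named after its values were seen, at 1.38.

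P4hb also serves collagen hydroxylation. Of 12 measured genes of collagen folding and hydroxylation 2 were higher and 3 lower (median -0.22). These counts lie near the shares among all measured genes, 14.5% higher and 19.4% lower. Among the alpha subunits that pair with P4hb, P4ha1 was at -0.40 (-0.48 to -0.33), P4ha2 at 1.55 (1.43 to 1.68) and P4ha3, from 111 reads against 13, at 3.17 (2.39 to 4.18). Serpinh1, the collagen chaperone HSP47, had 1134 normalised counts in L-GFP+ cells and 5700 in L-GFP- cells (-2.33, -2.42 to -2.24). Plod2 (-1.23) and Crtap (-1.38), named after their values were seen, were the other lower genes. The relatives of Creld2 and Manf were not called, with Creld1 at 0.66 (0.45 to 0.88) and Cdnf at 0.05 (-0.37 to 0.46). Fibroblast markers, whose cells are rich in collagen-folding genes, stood at summed normalised counts of 15913 in L-GFP+ cells and 92683 in L-GFP- cells, with 2 of 8 called higher and 4 lower. The sum rests on Dcn, a matrix proteoglycan gene, and without it was 10994 in L-GFP+ cells and 8755 in L-GFP- cells. The collagen genes of that list, named after their values were seen, were at 1.06 (Col1a1, called higher), 0.97 (Col3a1) and 0.94 (Col1a2). Their part in the collagen list was not tested.

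**Figure D5:**
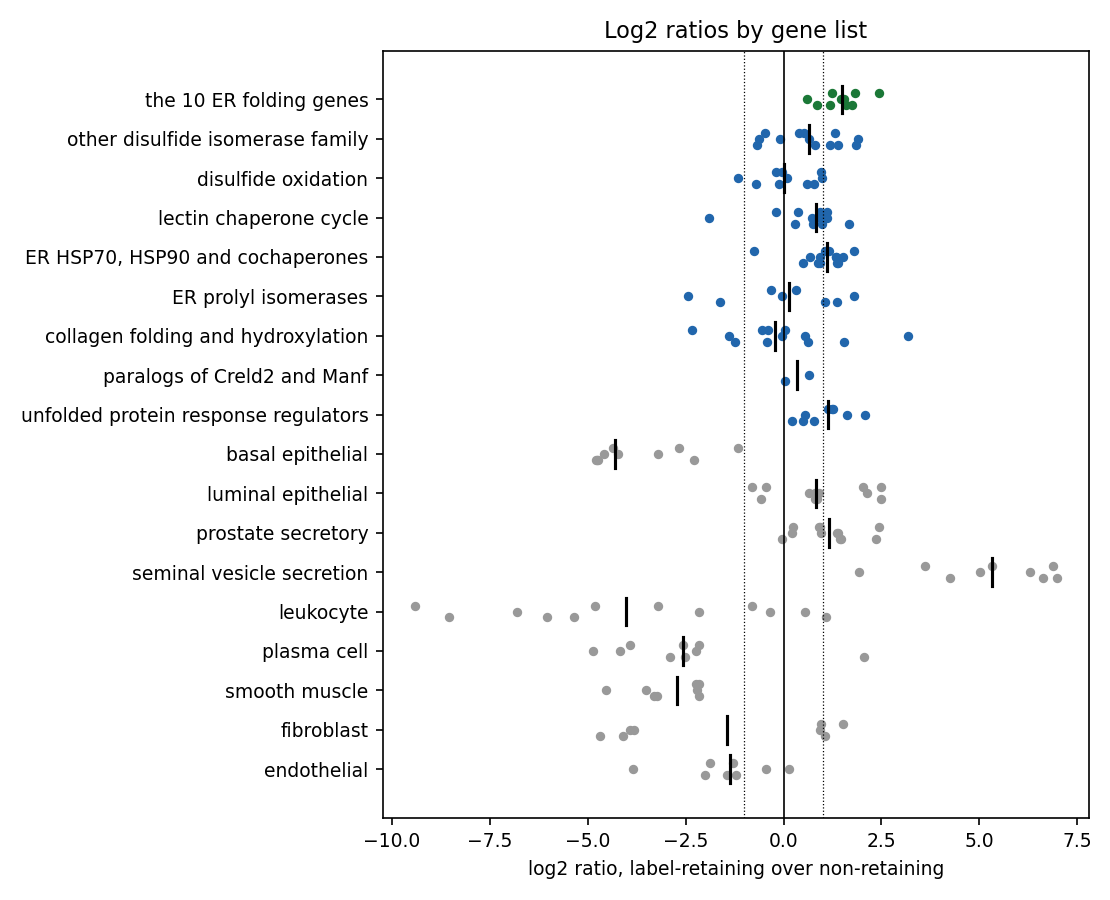
Log2 ratios (x axis) of the 10 folding genes (green), the 8 pathway lists (blue) and the marker lists (grey), 1 point per gene, with black bars at list medians and dotted lines at 2-fold. Genes with 0 reads in 1 library are drawn at their bound against 3 reads, and the 10 folding genes lie wholly to the right of 0.

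Plasma cells are known for abundant folding factors, so their markers were read beside the 10 genes. Of 9 measured plasma cell markers 8 were lower and 1 was higher in the label-retaining library, with summed normalised counts of 8877 against 51420. Without Sdc1 the sums were 5963 and 7269, and without Sdc1 and Derl3 they were 330.3 and 5918. The higher one was Derl3 (2.06), a gene of reticulum-associated degradation, and Sdc1, which had the most reads of the list and is also made by epithelia, was at -3.92. The joining chain gene Jchain had 6 reads in L-GFP+ cells and 31 in L-GFP- cells, and the immunoglobulin gene Igkc 43 and 273. Among marker genes 0 reads were seen for Gzma in the label-retaining library and for Svs6 and Svs3a in the non-retaining library. Seminal vesicle secretion genes were higher in 9 of 9 cases, led by Svs2 with 65699 reads against 574. Among all measured genes 14.5% were called higher and 19.4% lower. The part of plasma cells and of seminal vesicle secretion genes in the ratios of the folding genes was not tested.

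Measured genes outside all lists whose ratio lay nearest to the median of the 10, among 10060 genes at least as abundant as Pdia5, included Flrt3 (1.502), Gjb2 (1.505), Tmem214 (1.5002) and Rab3gap2 (1.507). Each of these lay within 0.0034 of that median on the log2 scale. With 2 libraries likeness rests on 1 ratio per gene.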

How the data were processed

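The deposited table holds a signal per gene for 2 libraries, namely reads scaled by a factor for each library. The values themselves show this, since 100% were whole multiples of 1 step per column (tolerance 1e-06 of a read). The factors were 1.002 and 1.10. Per the labels' protocols, the library kit was stranded and took total RNA. The submitters' processing notes list mm10, HTSeq 0.6.0, DESeq 1.16.0, TopHat2 2.0.10, CASAVA 1.8.2 and Bowtie2 2.1.0 without their roles. Which annotation was counted, and whether by strand, is not stated there. The looser and shifted motif searches were chosen after seeing the data.

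Symbols, positions and exon lengths came from GENCODE M21 (mm10), which matched 18634 identifiers and left 90 without a symbol. Log2 ratios used a pseudocount of 0.5 normalised counts. Intervals are exact (Clopper-Pearson, 95%) from the share of a gene's reads in the label-retaining library. Neighbour and within-library differences used normal intervals of the log odds. They cover counting error only. Where a library had 0 reads, the bound used 3 reads. With 1 library per group no test was run. The code was tested on simulated counts (Python 3.11.15, scipy 1.17.1). edgeR 4.0.16 gave the TMM (trimmed mean) factors of an alternative scaling.

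The 10 genes and all lists were chosen with earlier results of these data known. Named list genes were up to 3 called genes per list whose interval bound lay farthest from 0 and the gene with the highest TPM, and from marker lists the gene with the most reads. Promoter windows came from RefSeq (GRCm38.p6). Alternatives were 5 scalings, a pseudocount of 5, no filter or a mean of at least 100, and thresholds of 1.5-fold and 3-fold. Of the genes nearest in ratio to the members, 1 is not reported here.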

Additional observations from a re-analysis of the deposited data

How the results depend on the processing

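The direction of all 10 folding genes held under the deposited, library-total, median-of-ratios and TMM scalings, under totals without the 20 most abundant genes and with a pseudocount of 5. It held for 9 of 10 with Krt8 and Krt18 set equal, where Canx was at -0.17. The median log2 ratio, 1.503 as reported, was 1.30 under library totals, 1.58 under totals without the 20 most abundant genes and 0.74 under the keratin scaling. Of the 10 genes, 8 were called higher as reported, 2 under the keratin scaling, 10 at a 1.5-fold and 4 at a 3-fold threshold. The 26 pathway genes called higher became 6 under the keratin scaling, 44 at 1.5-fold and 8 at 3-fold, and the 7 called lower became 16, 11 and 4. Among all measured genes 5.35% were called higher and 40.5% lower under the keratin scaling, 24.2% and 26.8% at 1.5-fold, and 7.15% and 12.8% at 3-fold. Library totals gave 7 folding genes and 19 pathway genes called higher, and Pdia3 lost its call. These moves follow from the shift of every ratio or from the threshold itself. No folding gene was called lower under any alternative run. Depth limits Pdia5, with 78 reads in the non-retaining library. Leaving out a replicate was not possible. No paired analysis was possible because each group has 1 library and the labels give no replicate numbers.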

Other observations

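The stress element of Calr, Canx, Pdia6 and Creld2 also occurred in the promoter windows of other genes, with 37 gene symbols in all. Of these, 22 were measured. L-GFP+ cells had 12 of them called higher and 4 called lower, and the median log2 ratio was 1.05. Among 11818 measured genes with a promoter window 14.6% were called higher and 18.7% lower, with a median of 0.03. Without the 4 folding genes, 10 of 18 were higher and 4 lower. The highest was Syvn1 (2.16, 2.102 to 2.22), a ubiquitin ligase gene of reticulum-associated degradation, followed by Derl3 (2.06), and the chaperone genes Hspa5 (1.40), Dnajc3 (1.37) and Hsp90b1 (1.33) were also higher. The 4 lower genes were Calr4 (-1.90), Spats2l (-3.36), Adcy3 (-3.47) and Tdrd9 (-4.12). The 22 are not independent: Alg12 shares the element of Creld2, 1700122E12Rik shares that of Calr, and Xlr3a, Xlr3b and Xlr3c are related copies. Alg12 and 1700122E12Rik, the latter at 23.9 against 8.19 normalised counts (1.49, 0.39 to 2.84), remain among the 18. So do Derl3, Hspa5, Dnajc3, Hsp90b1 and Calr4, which also stand in the pathway or marker lists. The list of 22 was drawn after the windows of the folding genes had been read, and all genes named from it were chosen after their values were seen.

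Both parts of the element at exactly 9 bases of spacing were found in 39 of 32851 windows. At each other spacing from 0 to 15 bases, between 5 and 19 windows held both parts. The 8 windows of the folding genes had a median GC content of 67.3%, against 52.7% for all windows.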
